A study of Mus musculus with 2 samples.

Results

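The collagen prolyl and lysyl hydroxylases were taken as 10 genes, chosen by symbol: *P4ha1*, *P4ha2* and *P4ha3* for prolyl 4-hydroxylase, *P3h1*, *P3h2*, *P3h3* and *P3h4* for prolyl 3-hydroxylase, and *Plod1*, *Plod2* and *Plod3* for lysyl hydroxylase. All 10 were found among the 23628 genes listed, and all 10 averaged at least 1 CPM (counts-per-million), the filter used for low genes. The samples were 2 RNA-sequencing libraries of 1 condition, replicates 1 and 2, so no comparison between conditions and no p-value could be made. They are chondrospheres, colonies of chondrocytes grown in methylcellulose. The founding cells were femoral head chondrocytes of homozygous *Sox9* IRES-EGFP reporter mice at postnatal day 7, sorted for high GFP (Sox9GFPHi) and for the lack of endothelial, erythroid and leukocyte surface markers. Both cultures were kept at 5% oxygen in medium with serum, FGF2, BMP4, IGF1, LIF and TGF-β1, and there was no culture at another oxygen level. The methods treat each pup as a biological replicate, but the labels do not say from which pups these libraries came, so the spread between them may be technical in part.

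These enzymes work in the endoplasmic reticulum on collagen chains that have not yet folded, and use molecular oxygen, iron, 2-oxoglutarate and ascorbate. Prolyl 4-hydroxylase makes the hydroxyproline that keeps the triple helix stable at body temperature. It is built from a pair of catalytic alpha subunits, encoded by *P4ha1*, *P4ha2* or *P4ha3*, and a pair of beta subunits, which are protein disulfide isomerase, encoded by *P4hb*. Prolyl 3-hydroxylases modify few positions of each chain, and lysyl hydroxylases prepare lysines for cross-linking and for the attachment of sugars. Genes of this class, among them *P4ha1*, *P4ha2* and *Plod2*, are known targets of the hypoxia-inducible factors.

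The sequences just upstream of the 3 alpha subunit genes are shown first, because oxygen is a substrate of these enzymes and because hypoxia-inducible factors bind a short core sequence, ACGTG or GCGTG. Each sequence covers the 250 bases before the RefSeq transcription start on GRCm38.p6, 5′ to 3′ on the plus strand, and the capitals mark every match to either core or to its reverse complement. The start of *P4ha2* in RefSeq lies inside the gene as GENCODE draws it, so its window is within the annotated gene.

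P4ha1, chr10:59323046-59323295: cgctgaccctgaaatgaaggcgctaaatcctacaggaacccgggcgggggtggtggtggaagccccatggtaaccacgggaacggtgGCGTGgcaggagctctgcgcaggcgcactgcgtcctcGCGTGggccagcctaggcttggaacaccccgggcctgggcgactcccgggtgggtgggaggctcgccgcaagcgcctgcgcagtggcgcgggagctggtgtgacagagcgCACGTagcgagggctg

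P4ha2, chr11:54100674-54100923: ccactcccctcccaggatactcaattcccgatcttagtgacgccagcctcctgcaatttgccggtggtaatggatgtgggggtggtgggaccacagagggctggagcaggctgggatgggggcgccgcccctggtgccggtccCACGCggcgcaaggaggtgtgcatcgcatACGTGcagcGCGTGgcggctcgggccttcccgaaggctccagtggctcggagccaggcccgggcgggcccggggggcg

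P4ha3, chr7:100285270-100285519: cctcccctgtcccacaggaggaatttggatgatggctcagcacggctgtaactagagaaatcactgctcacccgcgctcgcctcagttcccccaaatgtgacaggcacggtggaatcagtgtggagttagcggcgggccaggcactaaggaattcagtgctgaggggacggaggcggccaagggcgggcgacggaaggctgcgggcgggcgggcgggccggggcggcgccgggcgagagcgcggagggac

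The *P4ha1* window held 3 matches, of which 2 were GCGTG and 1 was ACGTG on the reverse strand, and the *P4ha2* window held 1 ACGTG and 2 GCGTG. None was found in the *P4ha3* window. Of the 10 genes, 7 have a window in the table, and 5 of these 7 held at least 1 match. *Plod3* had 4 matches, *P3h1* had 2 in each of its windows, *Plod1* had 1, and *P3h3* had none. No window was used for *P3h2*, *P3h4* and *Plod2*. Over all 32851 windows of the same length, 16.6% held ACGTG, 28.2% held GCGTG and 38.6% held either, counting both strands, and 6.02% held CACGTG, the E-box that contains ACGTG. None of the matches in the members lay within CACGTG. The count of 5 in 7 and the share of 38.6% are not alike. The first is per gene, with 2 windows for *P3h1*, and the second is per window. The members' windows were also richer in G and C, at 54.8% to 70% against a median of 52.4%, and both cores contain CG. No enrichment can be read from these numbers. A match is a description of letters and says nothing about binding in these cells.

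The hydroxylases were high in both libraries. Divided by the length of all annotated exons, their median was 76.3 CPM per kb, against 3.67 CPM per kb for the 12436 genes that passed the filter and had a length, and all 10 lay above that value. Replicates 1 and 2 hold about 43300000 and 42200000 reads on genes, inferred from the step between low values, so that 3 reads correspond to 0.0693 and 0.0712 CPM. These floors cover counting error only. Even the lowest member value, 31.6 CPM of *P4ha3* in replicate 1, rests on about 1370 reads. Most genes had somewhat higher CPM in replicate 2, by a median of 0.30 on the log2 scale over the 12631 genes that passed the filter. CPM are shares of a total, of which the 10 most abundant genes held 43.4% in replicate 1 and 34.7% in replicate 2. A higher CPM is therefore not by itself more RNA. Differences between the libraries are given relative to the median of 0.30. Chondrocyte markers were present, with all 9 of the list above 1 CPM on average and their sum at 184786 and 128140 CPM. Of the 5 endothelial markers, *Cdh5*, *Kdr*, *Tek* and *Emcn* were listed at 0 in both libraries and *Pecam1* stayed at or below 0.231 CPM. The leukocyte gene *Ptprc* stayed at or below 0.0474 CPM, *Itgam* was listed at 0 in both, *Csf1r* reached at most 0.103 CPM and *Cd68* 2.56 CPM. The 6 erythroid markers summed to 0.0930 and 0.120 CPM.

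**Figure D1:**
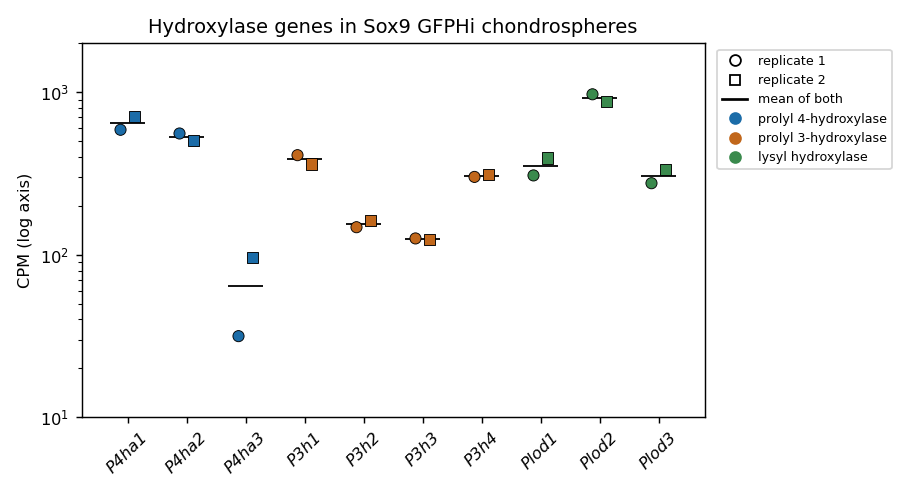
CPM (log axis) of the 10 hydroxylase genes in replicate 1 (circles) and replicate 2 (squares), coloured by class, with the mean of both as a bar. The 2 libraries lie close together for every gene except *P4ha3*, at 31.6 and 96.7 CPM. Heights of different genes also reflect their lengths.

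Among the alpha subunits of prolyl 4-hydroxylase, *P4ha1* and *P4ha2* were both abundant and *P4ha3* was the minor form. *P4ha1*, the alpha subunit found in most tissues, lies on chromosome 10 of GRCm38 from 59323296 to 59373304. Its level was 588 CPM in the first library and 708 CPM in the second, or 648 ± 85.2 CPM on average (SD, n = 2). *P4ha2*, known as an alpha subunit of cartilage and of endothelial cells, lies on chromosome 11 from 54100095 to 54131665. It had 558 and 502 CPM, a mean of 530.1 ± 39.4 CPM (SD, n = 2). *P4ha3*, on chromosome 7 from 100285520 to 100319699, had 31.6 and 96.7 CPM, a mean of 64.1 ± 46.0 CPM (SD, n = 2). On the deposited CPM, the values of *P4ha1* and of *P4ha2* each differed by less than 1.5 times, while the values of *P4ha3* lay far apart.

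Ratios between genes were formed within each library, on the level per kb, so that they do not depend on how the library was scaled. *P4ha1* exceeded *P4ha3* by a log2 ratio of 3.83 in replicate 1 and 2.48 in replicate 2, with a mean of 3.15 ± 0.95 (SD, n = 2). *P4ha2* exceeded *P4ha3* by 3.15 and 1.38, with a mean of 2.27 ± 1.25 (SD, n = 2). Both differences were larger than the spread between the libraries, and both kept their sign with every length tried. Larger than the spread means only that both libraries had the same sign and that the mean exceeded the SD. It is no test. The order of *P4ha1* and *P4ha2* was not settled. The log2 ratio of *P4ha1* to *P4ha2* was 0.68 and 1.10 per kb of all exons, but -0.76 and -0.34 per kb of the longest coding transcript. For *P4ha2* the annotated exons cover 6239 bases in 15 transcripts, of which 8 are coding, whereas its longest coding transcript has 2263 bases. For *P4ha1* the same lengths are 4114 and 4043 bases. With the coding sequence alone the 2 libraries gave 0.08 and 0.50, a mean of 0.29 that was within the SD of 0.30.

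As a share of the class, *P4ha1* made up 59.0% in replicate 1 and 60.7% in replicate 2 per kb of all exons, and 35.9% and 40.0% per kb of the longest coding transcript. *P4ha2* made up 36.9% and 28.4% with the first length, and 60.8% and 50.7% with the second. *P4ha3* stayed the smallest with both, at 4.16% and 10.9%, or 3.30% and 9.34%.

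Among the prolyl 3-hydroxylases, *P3h1* was the highest of the catalytic members, and *P3h4*, whose product lacks the catalytic domain, lay above *P3h1* with each of the 3 lengths. *P3h1* encodes the enzyme that acts with CRTAP and cyclophilin B on a single proline of the main fibrillar collagens, and lies on chromosome 4 from 119232915 to 119248975. It had 410.3 and 362 CPM, a mean of 386 ± 34.1 CPM (SD, n = 2). *P3h2*, an enzyme best known for collagen IV, lies on chromosome 16 from 25959288 to 26105784 and had 148 and 163 CPM. *P3h3*, on chromosome 6 from 124841089 to 124857752, had 126 and 124 CPM. *P3h4*, on chromosome 11 from 100408456 to 100414836, had 302 and 312 CPM. On the deposited CPM the values of each of the 4 genes lay close together, and the SD of *P3h3* was 1.17% of its mean. This closeness depends on the scaling. Relative to the median of all genes, *P3h1*, *P3h2*, *P3h3* and *P3h4* had log2 ratios of -0.48, -0.16, -0.33 and -0.26.

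*P3h1* exceeded *P3h2* by a log2 ratio per kb of 1.42 and 1.10, with a mean of 1.26 ± 0.23 (SD, n = 2). It exceeded *P3h3* by 1.73 and 1.58, with a mean of 1.65 ± 0.11 (SD, n = 2). *P3h4* exceeded *P3h3*, its partner in a complex with lysyl hydroxylase 1, by 2.11 and 2.18, with a mean of 2.15 ± 0.05 (SD, n = 2). These 3 differences were larger than the spread and kept their sign with every length. The same held for *P3h4* over *P3h2*, by 1.80 and 1.70. *P3h4* lay above *P3h1* by 0.38 and 0.60 per kb of all exons, a mean of 0.49 ± 0.16 (SD, n = 2), although without division by length it lay below, by a log2 ratio of -0.33. *P3h2* lay above *P3h3* by 0.31 and 0.48, a mean of 0.39 ± 0.12 (SD, n = 2), but with the longest coding transcript the difference of 0.11 was within the SD of 0.12.

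Among the lysyl hydroxylases, *Plod2* was the leading gene in both libraries and with every length. *Plod2* encodes the enzyme that hydroxylates lysines of the telopeptides, the short ends outside the triple helix, and lies on chromosome 9 from 92542223 to 92608428. It had 972 and 877 CPM, a mean of 925 ± 67.0 CPM (SD, n = 2), and ranked 155 of 22967 genes per kb of exon. *Plod1*, which acts on lysines within the helix, lies on chromosome 4 from 147909753 to 147936767 and had 308 and 394 CPM. *Plod3*, which hydroxylates lysines and can also attach sugars to them, lies on chromosome 5 from 136987019 to 136996648 and had 276 and 335 CPM. On the deposited CPM, *Plod1* and *Plod3* were higher in replicate 2 and *Plod2* in replicate 1, but relative to the median of all genes *Plod3* was at -0.02 on the log2 scale.

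*Plod2* exceeded *Plod1* by a log2 ratio per kb of 1.99 and 1.48, with a mean of 1.73 ± 0.36 (SD, n = 2). It exceeded *Plod3* by 1.56 and 1.14, with a mean of 1.35 ± 0.30 (SD, n = 2). Both differences were larger than the spread between the libraries. *Plod2* made up 62.9% and 55.1% of the class per kb of all exons, and 59.7% and 51.7% per kb of the longest coding transcript. *Plod1* and *Plod3* could not be ordered. *Plod3* lay above *Plod1* by 0.38 ± 0.05 (SD, n = 2) per kb of all exons, and below it, at -0.21, with the longest coding transcript. The exons of *Plod1* cover 6765 bases and its longest coding transcript 3243.

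**Figure D2:**
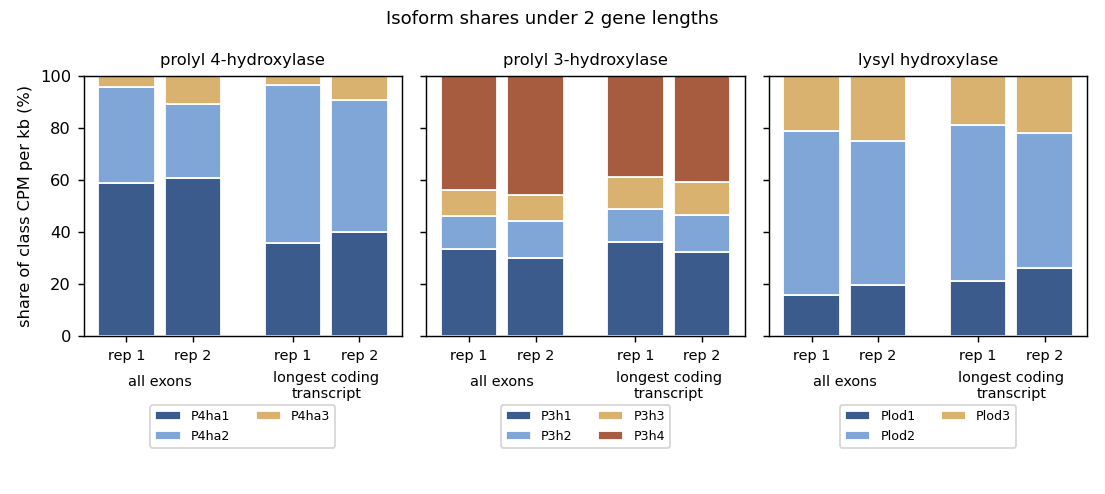
Share of each isoform in the summed CPM per kb of its class, in percent, for replicates 1 and 2, with the length of all annotated exons (left pair of bars) and of the longest coding transcript (right pair). *Plod2* holds more than any other lysyl hydroxylase in all 4 bars, between 51.7% and 62.9%, whereas *P4ha1* and *P4ha2* change places with the length.

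The gene totals cannot tell splice forms apart, and these matter for *P4ha1*, *P4ha2* and *Plod2*. The *Plod2* transcripts with a consensus coding sequence differ by 1 coding exon of 63 bases, or 21 codons. The long form with this exon is the one known for telopeptide lysines. *P4ha1* has a pair of exons of 71 bases each, of which each such transcript holds 1, and an exon of 240 bases that 1 of the 3 transcripts lacks. *P4ha2* has a comparable pair, of 60 and 66 bases. The *Plod2* exon and the exons of these pairs are printed here on the plus strand of GRCm38, as read from the GENCODE M21 transcripts, with no part in capitals.

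Plod2, chr9:92601985-92602047: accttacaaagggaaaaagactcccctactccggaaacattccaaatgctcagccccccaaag

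P4ha1, first exon of the pair, chr10:59354340-59354410: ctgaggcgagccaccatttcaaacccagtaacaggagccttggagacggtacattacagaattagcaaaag

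P4ha1, second exon of the pair, chr10:59355350-59355420: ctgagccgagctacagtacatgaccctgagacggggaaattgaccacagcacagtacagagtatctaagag

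P4ha2, first exon of the pair, chr11:54126238-54126297: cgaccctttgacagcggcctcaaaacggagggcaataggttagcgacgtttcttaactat

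P4ha2, second exon of the pair, chr11:54126346-54126411: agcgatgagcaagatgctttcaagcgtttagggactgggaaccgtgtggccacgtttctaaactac

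Reads on these exons were not separated in the deposited values, so the level of 925 CPM of *Plod2* is a sum over both forms. Some members also overlap other genes in position. *Plod3* shares 1003 bases with *Znhit1* on the opposite strand, which had 14.5 and 21.9 CPM, and *P3h2* shares 1055 bases with *Gm4524*, also on the opposite strand, which had 18.2 and 21.1 CPM. *Plod2* shares 647 bases with *Gm38391*, on the opposite strand, at 3.21 and 3.27 CPM. On the same strand *P3h2* shares 9459 bases with *AU015336*, which was listed at 0 in both libraries, and *Plod3* shares 109 bases with *Mir702*, for which no value was used here. The libraries kept the strand, but how the counting used it is not given in the sources used here.

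Set in order of CPM per kb of exon, the 10 genes ran *Plod2*, *P4ha1*, *P3h4*, *P3h1*, *P4ha2*, *Plod3*, *Plod1*, *P3h2*, *P3h3* and *P4ha3*, from 172 ± 12.4 down to 20.5 ± 14.7 CPM per kb (SD, n = 2 each). Of the 9 pairs of neighbours, 3 did not differ beyond the spread between the libraries: *Plod2* and *P4ha1*, *P4ha1* and *P3h4*, and *P3h3* and *P4ha3*. Of the other 6, 4 had the same order in replicates 1 and 2 when divided by the longest coding transcript instead. The exceptions were *P3h1* and *P4ha2*, and *Plod3* and *Plod1*. Neighbours alone understate the change. Per kb of the longest coding transcript *P4ha2* averaged 234 CPM per kb, above *P4ha1*, *P3h4* and *P3h1*, at 160, 141 and 121. *Plod2* then exceeded *P4ha1* by log2 ratios of 0.87 and 0.45. The order of the 10 genes therefore depends on the length.

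Between the 2 libraries, only *P4ha3* of the 10 members was past 2-fold. The background was 13.5% of the 12631 genes that passed the filter, and 7.41% of the 1768 genes whose mean lies between the lowest and the highest member. A count of 1 in 10 is near these shares and is no result about the class. Relative to the median of all genes, *P4ha3* was higher in replicate 2 by 1.31 on the log2 scale, or 2.47-fold. For the other members this centred log2 ratio lay between -0.48, for *P3h1*, and 0.05, for *Plod1*. Against the median of all genes 8 members were lower in replicate 2 and 2 were higher, whereas on the deposited CPM 4 were lower and 6 higher, so the direction of the small differences depends on the scaling. The median size of the log2 ratio was 0.29 over the members and 0.30 over all genes that passed the filter. It was 0.33 against 0.24 for the genes within the members' range, centred on their own median, and 0.17 against 0.41 over all genes without centring.

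**Figure D3:**
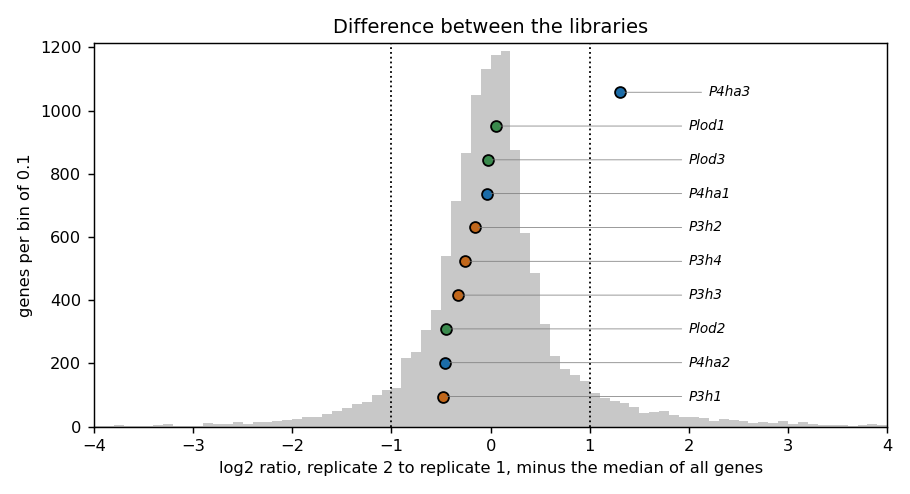
Histogram of the log2 ratio of replicate 2 to replicate 1, minus the median, over the 12631 genes that passed the filter (bins of 0.1, values beyond 4 not drawn), with the 10 members as points at arbitrary heights, coloured by class as in the plot of levels. *P4ha3*, at 1.31, is the only member beyond the dotted lines at 2-fold.

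Some other genes differed in the same direction as *P4ha3*, and others in the opposite one. The collagen chain genes *Col6a3*, *Col6a1* and *Col12a1* were higher in replicate 2 by centred log2 ratios of 1.53, 1.23 and 1.21. As many of the 19 chains were lower past 2-fold, *Col1a1*, *Col9a1* and *Col27a1*, at -1.30, -1.09 and -1.09. The 6 osteoblast markers summed to 21.0 and 92.3 CPM. Of the 5 that passed the filter, 3 were past 2-fold, *Dmp1*, *Sp7* and *Alpl*. *Sp7* was low, at 1.96 and 6.81 CPM, and so was *Alpl*, at 0.462 and 1.92 CPM. For this count and the marker counts that follow, the background was 13.5% of all genes that passed the filter. *Dmp1*, an osteocyte gene, had 0.116 and 40.4 CPM and *Runx2*, a transcription factor of bone, had 16.2 and 39.6 CPM, while *Bglap*, which encodes osteocalcin, was at or below 0.229 CPM. The 8 fibroblast markers summed to 5872 and 4184 CPM, and of the 6 that passed the filter 3 were lower in replicate 2 past 2-fold and none higher, with *Pi16* listed at 0 in both libraries and *Thy1* at 0.208 CPM and at 0. Of the 9 chondrocyte markers, 3 were lower in replicate 2 past 2-fold, with *Matn1* at 902 and 29.2 CPM. The part of any of these in the difference of *P4ha3* was not tested, and fewer cells of a type cannot be told apart from less RNA per cell.

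The partners of the hydroxylases were also high, and none of the 8 listed was past 2-fold between the libraries. Beside the 13.5% of all genes that passed the filter, this count is no result about the list. *P4hb* had 1429 and 1813 CPM. Per kb of exon it exceeded the sum of the 3 alpha subunits by 2.15-fold, a log2 ratio of -1.10 ± 0.08 (SD, n = 2) for the alpha subunits to *P4hb*. With the longest coding transcript the log2 ratio was -0.42, and without division by length -0.38. Protein disulfide isomerase also has roles outside this enzyme, and ratios of RNA do not give the make-up of a protein complex. *P4ha1* was below *P4hb* by a log2 ratio of -1.84 ± 0.05 (SD, n = 2) and *P4ha2* by -2.73 ± 0.35 (SD, n = 2), and both were below it with every length.

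*Crtap*, which holds *P3h1* in its complex, had 252 and 254 CPM, and *Ppib*, which encodes cyclophilin B, had 238 and 288 CPM. The log2 ratio per kb of *P3h1* to *Crtap* was -0.51 ± 0.14 (SD, n = 2) and that of *P3h1* to *Ppib* was 0.34 ± 0.32 (SD, n = 2). The first kept its sign in both libraries with each of the 3 lengths, at -0.32 with the longest coding transcript and -0.29 with the coding sequence. It became 0.61 without division by length, so its sign depends on that division. The second became -1.28 with the longest coding transcript, so the order of *P3h1* and *Ppib* is not settled. *Fkbp10*, whose product binds lysyl hydroxylase 2 and supports its activity, had 590.3 and 712 CPM. *Plod2* and *Fkbp10* lay close together, with log2 ratios per kb of -0.16 and -0.58, and of 0.22 and -0.20 per kb of the longest coding transcript. *P3h4* to *Plod1*, which share a complex with *P3h3*, was 1.45 ± 0.22 (SD, n = 2), but -0.18 without division by length.

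*Colgalt1* and *Colgalt2* encode the enzymes that attach galactose to hydroxylysine. *Colgalt1* had 235 and 291 CPM and *Colgalt2* had 179.7 and 179 CPM. *Plod3* exceeded *Colgalt2* by a log2 ratio per kb of 0.67 ± 0.20 (SD, n = 2), with the same sign for every length, and *Colgalt1* by 0.15 ± 0.02 (SD, n = 2), which became -0.05 with the coding sequence alone. *Serpinh1*, which encodes the collagen chaperone HSP47, was the highest partner per kb and had 2403 and 2712 CPM. *Fkbp14*, a prolyl isomerase of the same compartment, was the lowest per kb, at 22.9 and 36.1 CPM per kb.

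**Figure D4:**
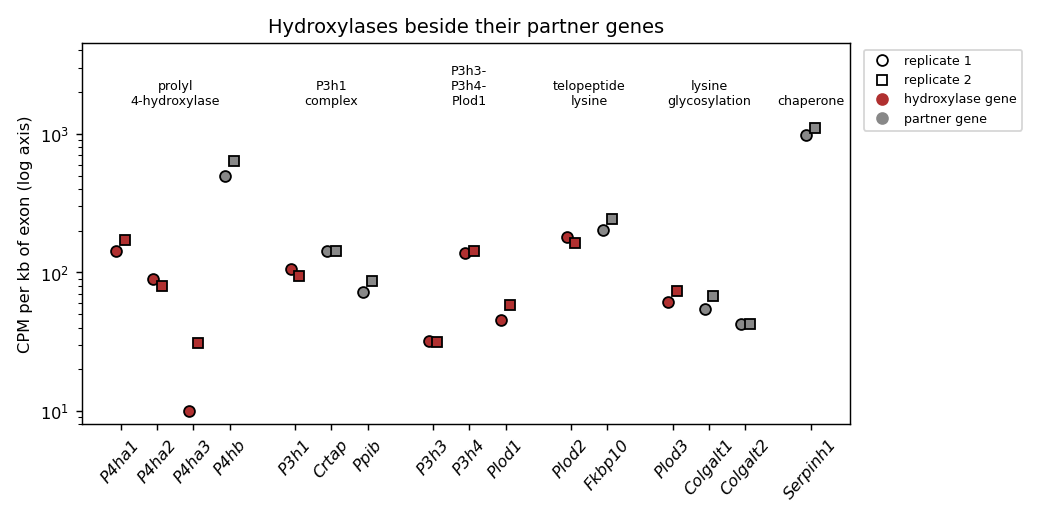
CPM per kb of annotated exon (log axis) of the hydroxylase genes (red) and of the 8 partner genes except *Fkbp14* (grey), grouped by the complex or step they belong to, in replicate 1 (circles) and replicate 2 (squares). *P4hb*, at 499 and 634 CPM per kb, stands above each of the alpha subunits, and *P3h4* stands above *P3h3*, its partner in the complex with *Plod1*.

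As a sum, the collagen chains listed were far more abundant than the genes of each class. This did not hold for every chain. *Col2a1*, *Col9a2*, *Col9a3*, *Col10a1*, *Col11a1* and *Col11a2* averaged more CPM per kb than the sum of each class. *Col9a1* averaged 293 CPM per kb, below the prolyl 3-hydroxylase sum. Every other chain averaged less than the sum of each class, the highest being *Col1a2*, at 215 CPM per kb. *Col4a1* and *Col12a1* averaged 8.36 and 9.72 CPM per kb, below the 20.5 CPM per kb of *P4ha3*, the lowest member. The 19 collagen chains listed summed to 21253 CPM per kb in replicate 1 and 15585 in replicate 2, and to 5138 and 4692 CPM per kb without *Col2a1*. The prolyl 4-hydroxylase genes summed to 242 and 284 CPM per kb, the prolyl 3-hydroxylase genes to 317 and 313, and the lysyl hydroxylase genes to 287 and 295. The prolyl 3-hydroxylase sum includes *P3h4*, whose product lacks the catalytic domain. *P3h4* made up 43.7% and 45.8% of that sum, so the place of this class among the 3 depends on whether *P3h4* is counted. The log2 ratio of the prolyl 4-hydroxylase sum to the collagen sum was -6.45 in replicate 1 and -5.78 in replicate 2. For the prolyl 3-hydroxylases it was -6.07 and -5.64, and for the lysyl hydroxylases -6.21 and -5.72. In each class the ratio was higher in replicate 2, where *Col2a1* had 100682 CPM against 148953 CPM. With the longest coding transcript the means over both libraries were -6.17, -6.43 and -6.06 for the 3 classes in the same order, against -6.12, -5.85 and -5.97 per kb of all exons, and without division by length they were -6.97, -7.32 and -6.62, so the order of the classes depends on the length. Without *Col2a1* the ratios per kb of all exons were -4.41 and -4.05, -4.02 and -3.91, and -4.16 and -3.99, which lay closer together in each class. Of the 19 collagen chains, 3 were higher and 3 lower in replicate 2 past 2-fold, beside 13.5% of all genes that passed the filter.

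Hydroxylases of other substrates were at lower levels. Per kb of exon, the highest of the 8 listed was *Egln1*, a prolyl hydroxylase that marks hypoxia-inducible factors for destruction, at 10.1 and 11.5 CPM per kb, below the mean of each of the 10 members. *P4ha3* alone came near it, with 10.1 CPM per kb in replicate 1. *Egln2* was at 9.38 and 10.7 CPM per kb, and *Jmjd6*, a lysyl hydroxylase of nuclear proteins, at 5.78 and 6.70 CPM per kb. *Egln3*, a strongly hypoxia-inducible member of the family, had 0.277 and 0.0949 CPM. *P4htm*, a transmembrane prolyl 4-hydroxylase of the endoplasmic reticulum that does not act on collagen, had 1.25 and 0.546 CPM. *Asph*, *Hif1an* and *Ogfod1* had means between 27.9 and 59.4 CPM. The ranking depends on the length, because without division *Asph* was the highest of the 8, at 51.2 and 67.6 CPM. In replicate 1 it then lay above *P4ha3*, at 31.6 CPM.

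Of 14 hypoxia-inducible genes outside the class, 12 passed the filter, of which none was higher and 2 were lower in replicate 2 past 2-fold. This count is near the 13.5% of all genes past 2-fold and is no result about the list. *Slc2a1*, a glucose transporter, had 272 and 133 CPM, and *Adm*, which encodes adrenomedullin, had 40.5 and 6.86 CPM. The hydroxylases *P4ha1*, *P4ha2* and *Plod2* had centred log2 ratios of -0.04, -0.46 and -0.45. *Vegfa* had 103 and 93.1 CPM, *Ldha* 371 and 506 CPM, and *Pgk1* 132 and 181 CPM, while *Ankrd37* and *Car9* stayed at or below 0.759 CPM. Without a culture at higher oxygen, no effect of oxygen on any of these genes can be given.

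The next steps on the same lysines, and the supply of a cofactor, were represented as well. Lysyl oxidases turn hydroxylysine and lysine into the aldehydes that cross-link collagen, and *Lox*, at 1839 and 2505 CPM, was the highest of the 5 per kb, at 455 ± 98.6 CPM per kb (SD, n = 2). *Loxl2* had 1368 and 2164 CPM, and *Loxl1* had 54.1 and 59.4 CPM. None of the 5 was past 2-fold between the libraries, beside 13.5% of all genes that passed the filter, which is no result about the list. The ascorbate transporter *Slc23a2* had 60.9 and 51.6 CPM, whereas *Slc23a1* was at 0.0924 CPM in the first library and listed at 0 in the second.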

How the data were processed

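RNA-sequencing values of 2 libraries of Sox9GFPHi chondrospheres were used. The authors aligned single-end reads to GRCm38 (mm10) with GENCODE M25 by STAR 2.7.3a and quantified genes with Partek E/M in Partek Flow 10.0.21.0801, a method that may split a read between genes with shared sequence. The deposited values are CPM made by the authors, and 0.0001 had been added to each, which was subtracted here. Of the low values, 65.6% and 64.0% were whole multiples of 1 read within 0.02 of a read, so the reads could not be restored, and no model for counts was used.

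The members and gene lists were chosen with earlier results of these data known. The rule for named genes takes all 10 members and every gene of the lists of partners, other hydroxylases, collagen chains, lysyl oxidases, hypoxia-inducible genes and ascorbate transporters, and the ratios of members to partners were chosen after seeing the data. Marker genes come from marker lists. Lengths came from GENCODE M21 on GRCm38, the same build with an earlier release, for 22967 genes (97.2%). Differences between genes are log2 ratios of CPM per kb within a library, as mean and SD (n = 2). They are called larger than the spread when both libraries have 1 sign and the mean exceeds the SD. With 2 libraries of 1 sign, this fails only when 1 ratio is several times the other. The rule is thus little more than agreement in sign, and all 12 within-class pairs met it. So did *P4ha2* to *Plod3*, at 0.55 and 0.12. Ratios between libraries used a pseudocount of 0.1 CPM, which understates the change of low genes, and were centred on the median. On simulated data for 12631 genes, 100% of 200 genes changed 4-fold were found past 2-fold, with 25 unchanged genes. The simulated libraries had a smaller spread than the real ones, in which 13.5% of the genes were past 2-fold. The simulation therefore checks the calculation and not how reliable the 2-fold cut is in these data. Promoter sequences are from RefSeq on GRCm38.p6. Python 3.11.15, numpy 2.4.6, pandas 2.3.3 and matplotlib 3.10.9 were used.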

Additional observations from a re-analysis of the deposited data

How the results depend on the processing

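The length by which a gene was divided was the choice that mattered. With the longest coding transcript, the log2 ratio was -0.55 for *P4ha1* to *P4ha2* and -0.21 for *Plod3* to *Plod1*, both reversed, and it moved to 1.46 for *P3h1* to *P3h3*, 0.22 for *P3h4* to *P3h1*, 0.11 for *P3h2* to *P3h3*, 1.57 for *P3h4* to *P3h2*, 1.68 for *P3h4* to *P3h3* and 1.23 for *Plod2* to *Plod1*. Without division by length it reversed to -0.33 for *P3h4* to *P3h1* and -0.20 for *Plod3* to *Plod1*, and was 0.29 for *P4ha1* to *P4ha2*, 0.98 for *P3h4* to *P3h2* and 1.29 for *P3h4* to *P3h3*. With the longest coding sequence, a length chosen after seeing the data, it reversed to -0.22 for *Plod3* to *Plod1* and was 0.29 for *P4ha1* to *P4ha2*, 1.65 for *P3h4* to *P3h2*, 2.02 for *P3h4* to *P3h3* and 1.35 for *Plod2* to *Plod1*. These shifts follow from the lengths alone, which change a ratio equally in both libraries.

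Of the 12 pairs, 9 had 1 sign in both libraries on all 4 scales. Adding 1 CPM moved none of the 12 by more than its SD. The count of members past 2-fold between the libraries was 1 under each of the alternatives run for centring, pseudocount, filter and fold, and *P4ha3* was the gene in each. The levels of all 10 members were higher when the total omitted the 10 most abundant genes, as a smaller total requires, and those of 9 by more than their SD. Of the ratios of class sums to partners or collagens, 10 values moved by more than their SD with the length, and none changed sign. The mean of 2 libraries lies within 1 SD of each of them by arithmetic, so leaving out 1 library is not informative here. No paired analysis was possible because there is 1 group.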
